A study of Schizosaccharomyces pombe with 4 samples.

Results

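The arm windows with the highest H3K9me3 ratio were 500 stretches of 1500 bp on the arms of chromosomes 1, 2 and 3 of the fission yeast Schizosaccharomyces pombe. They were drawn from 7666 arm windows with a value, and from 7996 windows on the 3 chromosomes in all. Histone H3 trimethylated at lysine 9 (H3K9me3) had been measured by chromatin immunoprecipitation on tiling microarrays (ChIP-chip), in which precipitated and whole-cell extract DNA are hybridised together to an array of probes along the genome. The strains were IRD1, IRD2, IRD3 and WT, with 1 array each, and all 4 titles carry the further tag REIID. Strain names were taken from these titles, because the genotype and antibody labels of IRD1 and IRD3 are exchanged. The labels spell out neither the IRD names nor the tag, so what the IRD strains have in place of the WT genotype, and what all strains share through the tag, cannot be stated. All cells were grown at 32 °C and fixed in exponential growth, and the antibody was the same for all strains. With 1 array per strain no difference below has a replicate check, and none carries a p-value.

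H3K9 methylation is the mark of heterochromatin in fission yeast. The methyltransferase Clr4 writes it, and chromodomain proteins such as Swi6 and the Chp proteins bind it, which compacts the chromatin and lowers transcription. The mark is concentrated at the repeats that flank the centromeres, at the chromosome ends and across the silent mating-type region. Outside these domains, small islands are known on the arms, several of them at genes for meiosis that are kept off in growing cells.

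The ratio of a probe was that of immunoprecipitated over input DNA on the log2 scale, with the median probe of its array at 0, so that a value of 1 is 2 times the array's median. The value of a window was the median over its probes, which lie 300 bp apart, and the members were the 500 windows with the highest mean over the 4 arrays. The outer 100 kb of chromosomes 1 and 2, the outer 60 kb of chromosome 3, the regions around the 3 centromeres and the mating-type region of chromosome 2 had been set aside. The members made up 6.52% of the arm windows and covered 750 kb. Because these ratios chose the members, their height is a description and is not itself a result. Positions are those in the probe names. A window is given by its first position and by the first position of the next window, as in 115500 to 117000. The files name no genes and no genome build, and no genes were assigned.

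The median member stood at 1.07 in IRD1, with quartiles of 0.94 and 1.23. It stood at 1.34 in IRD2, with quartiles of 1.15 and 1.51, and at 1.21 in IRD3, with quartiles of 1.09 and 1.41. In WT it stood at 1.34, with quartiles of 1.21 and 1.54. The median over all arm windows lay between 0.00 in IRD1 and 0.06 in WT. The members were therefore for the most part a shoulder of the arm distribution a little above 2 times the array median. Their medians lay well below the mating-type domain, and the highest member, described below, was an exception. The mating-type domain on chromosome 2, whose limits had been set from the WT array, holds 5 usable probes, and these had medians of 5.23 in IRD1, 4.70 in IRD2, 5.15 in IRD3 and 5.38 in WT.

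The limit of the set fell on a continuous slope. The last member, from 5349000 on chromosome 1, had 0.91 in IRD1, 1.07 in IRD2, 1.04 in IRD3 and 1.12 in WT. The first window outside, from 3802500 on chromosome 2, had 0.74 in IRD1, 1.32 in IRD2, 0.92 in IRD3 and 1.16 in WT. The 25 members just inside the limit had means of 1.04 to 1.05, and the 25 windows just outside had means of 1.02 to 1.04. The windows on both sides of the limit were thus of one level, and the number 500 marks no gap. The upper end was thin. A mean of at least 1.5 was reached by 69 members (0.9% of all arm windows), of at least 2 by 5 (0.0652%) and of at least 3 by 1 member alone.

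**Figure D1:**
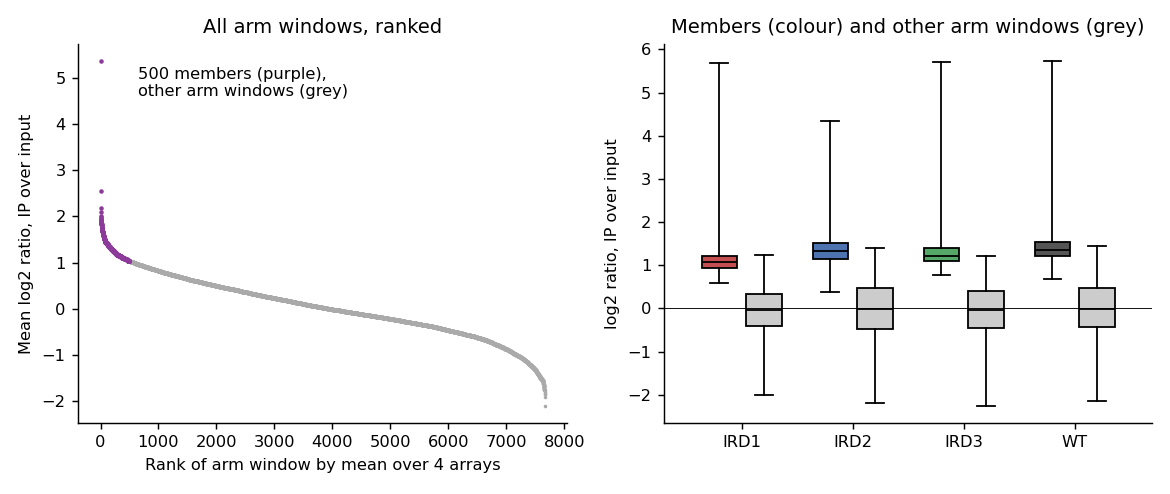
Left, the mean log2 ratio of immunoprecipitated over input DNA of each of the 7666 arm windows, ranked from the highest, with the 500 members in purple and the others in grey. Right, the log2 ratio on each array for the members (coloured box) and the other arm windows (grey box), where boxes show quartiles and medians and whiskers the lowest and highest window. The first member stands alone above 5, and the rest of the members run into the other arm windows with no step.

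The channels of the ratio were also read apart, and as the ratio chose the members their levels are a description. Centred on its array median, the immunoprecipitated signal of the members had a median of 0.91 in IRD1, 1.17 in IRD2, 1.07 in IRD3 and 1.15 in WT. The input signal of the same windows had medians of -0.06 in IRD1, -0.03 in IRD2, -0.05 in IRD3 and -0.06 in WT. Over all arm windows the input medians lay between -0.02 in IRD1 and 0.02 in IRD2. The lowest input signals of single members were -1.36 in IRD1, -1.23 in IRD2, -1.17 in IRD3 and -1.09 in WT.

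Most members reached 1 on every array. A value of at least 1 on all 4 arrays was found in 272 members, which were all the arm windows to reach it (3.55%). The members were chosen on the mean of these same values, so this largely follows from the rule and is a description. A further 179 members reached 1 on 3 arrays, 48 on 2 arrays and 1 on a single array. Counted array by array, 319 members reached 1 in IRD1, 457 in IRD2, 461 in IRD3 and 485 in WT. The same height was reached by 4.64% of all arm windows in IRD1, 10% in IRD2, 7.3% in IRD3 and 10.8% in WT. IRD1 had the fewest members at this height and also the narrowest spread of arm windows. The interquartile range over all arm windows was 0.80 in IRD1, 1.03 in IRD2, 0.92 in IRD3 and 0.99 in WT.

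A level that does not rest on its own choice was had by letting 3 arrays choose 500 windows and reading the array left out. The windows so chosen had a median of 1.05 in IRD1, 1.31 in IRD2, 1.21 in IRD3 and 1.33 in WT. None of the 500 had a value of 0 or less on the array left out, in any of the 4 cases. The lowest value read was 0.52 in IRD1, 0.21 in IRD2, 0.71 in IRD3 and 0.66 in WT. Windows high on 3 strains' arrays were therefore also above the median on the fourth, and 458 to 475 of the 500 were members of the set chosen by all 4. The 4 arrays share the probes, the slide and the labelling method, so this recurrence covers whatever those carry as well as H3K9me3.

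The rank of a member still varied between arrays. Of the 500 members, 397 were among the highest 500 arm windows of IRD1, 386 of IRD2, 428 of IRD3 and 404 of WT, and 253 were so on all 4. Across the 500 members, Spearman's rho between arrays ran from 0.40 for IRD2 with WT to 0.66 for IRD1 with IRD3. It was at least 0.92 for every pair across all 7666 arm windows, whose range of values is wider. These coefficients are descriptions over windows that share their arrays and, in part, neighbouring signal. A rank beyond 1000 was found in 37 members, each on 1 array. It fell on IRD2 in 22 of them, on IRD1 in 8, on WT in 6 and on IRD3 in 1. In 14 of the 22 that were low on IRD2, the rank was within 500 on all the other arrays, against 2 of the 8 low on IRD1, 3 of the 6 low on WT and 0 of 1 low on IRD3.

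The highest member by far ran from 115500 to 117000 on chromosome 3. It had 5.69 in IRD1, 4.34 in IRD2, 5.70 in IRD3 and 5.73 in WT, and ranked first on every array. That was 51.5 times the array median in IRD1, 20.3 times in IRD2, 51.9 times in IRD3 and 52.9 times in WT. Within-array loess lowered these levels to 3.74 in IRD1, 1.99 in IRD2, 3.94 in IRD3 and 3.94 in WT, and normexp background correction raised them to 5.92 in IRD1, 4.82 in IRD2, 6.38 in IRD3 and 6.45 in WT. The next member had a mean of 2.56, so this window stood apart from all others. A probe reads every copy of its sequence that a strain carries. The files give no probe sequences and the labels do not describe how the strains were built, so whether this signal lies at the position in the probe names was not tested. The signal had the form of a box. All 5 probes of the window lay between 5.05 and 6.24 in IRD1, between 4.22 and 4.48 in IRD2, between 5.46 and 5.82 in IRD3 and between 5.02 and 5.95 in WT. IRD2 was the low array at each of the 5 probes, and its range did not meet that of any other array. The input of the window was -0.06 in IRD1, 0.06 in IRD2, -0.63 in IRD3 and -0.40 in WT. The immunoprecipitated signal was 5.43 in IRD1, 4.30 in IRD2, 4.90 in IRD3 and 5.14 in WT, so IRD2 was also the lowest array in that channel, by a smaller margin than in the ratio. Of the few saturated spots, all on the IRD2 array, 0 lay in a member.

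Just outside this box the arrays fell into a different order. The probe at 115200, 300 bp before the first probe of the window, had 2.58 in IRD1, 1.83 in IRD2, 0.18 in IRD3 and 0.48 in WT. The probe at 117000, next after the last one, had 1.98 in IRD1, 1.53 in IRD2, -0.23 in IRD3 and 0.23 in WT. IRD1 and IRD2 were thus higher than IRD3 and WT on both edges, while the IRD2 array was the low one within. At 117000 the input signal was also lower in 2 arrays, at -1.29 in IRD1 and -1.25 in IRD2, against -0.51 in IRD3 and -0.35 in WT. At 115200 it was alike, at -0.58 in IRD1, -0.51 in IRD2, -0.83 in IRD3 and -0.54 in WT. The part of the input in the edge at 117000 was not tested.

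The second member, from 2340000 to 2341500 on chromosome 2, had 3.04 in IRD1, 2.36 in IRD2, 3.27 in IRD3 and 1.55 in WT. All 3 IRD arrays stood above WT, and it ranked second on each of them and 115th on WT. Against WT it was 1.49 higher in IRD1, a fold of 2.81. The difference was 0.81 in IRD2, a fold of 1.75, and 1.71 in IRD3, a fold of 3.28. The signal was a peak and not a box. It was highest at the probe at 2340900, with 3.91 in IRD1, 3.64 in IRD2, 4.31 in IRD3 and 2.71 in WT. At 2341500, the first probe past the window, it was still 1.88 in IRD1, 1.60 in IRD2 and 1.91 in IRD3, against -0.08 in WT. The WT array thus held a peak at the same place that was lower and narrower. The input of the window was low but alike on all arrays, at -0.77 in IRD1, -0.78 in IRD2, -0.86 in IRD3 and -0.81 in WT.

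The third member, from 1866000 to 1867500 on chromosome 2, had 2.11 in IRD1, 1.96 in IRD2, 2.47 in IRD3 and 2.20 in WT. It lay in the longest stretch of raised probes among the 10 highest members. The window before it, from 1864500, was also a member, and 13 usable probes in a row from 1864200 to 1867800 had a mean over the arrays of at least 1. The fourth member, from 442500 to 444000 on chromosome 1, had 1.86 in IRD1, 2.27 in IRD2, 1.96 in IRD3 and 2.30 in WT. Here 3 probes from 443100 to 443700 carried the height, and the probe at 442200 was at -0.97 in IRD1, -1.19 in IRD2, -1.03 in IRD3 and -1.08 in WT. A member could thus be one part of a stretch of some kilobases or a peak of under 1 kb with signal below the array median on either side.

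The fifth member, from 2814000 to 2815500 on chromosome 2, was the most even of the 10 highest over the strains, with 2.0 in IRD1, 1.98 in IRD2, 2.11 in IRD3 and 1.98 in WT. The sixth to the tenth lay at 2550000 on chromosome 2, at 2163000 on chromosome 3 and at 2634000, 3352500 and 1213500 on chromosome 1. Their values ran from 1.41 to 1.75 in IRD1, from 1.79 to 2.12 in IRD2, from 1.87 to 2.10 in IRD3 and from 2.03 to 2.27 in WT. IRD1 was the lowest array in all of these 5 as measured. With the arrays scaled to one spread, IRD1 was 0.09 above WT at 2550000 and 0.08 above WT at 2634000.

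**Figure D2:**
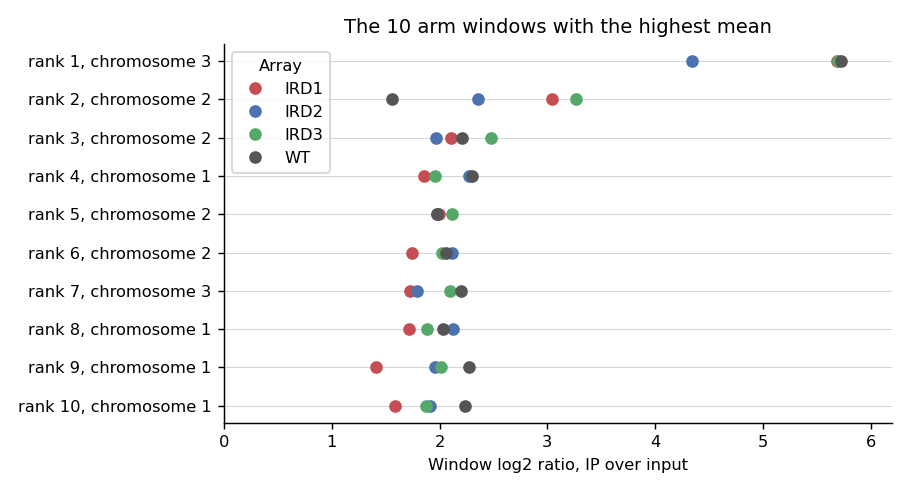
The log2 ratio of immunoprecipitated over input DNA on each of the 4 arrays (1 point per array) for the 10 arm windows with the highest mean, ranked from the top. IRD2 stands apart to the left in the first window and WT in the second, while the arrays of the other 8 lie within 0.9 of each other.

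**Figure D3:**
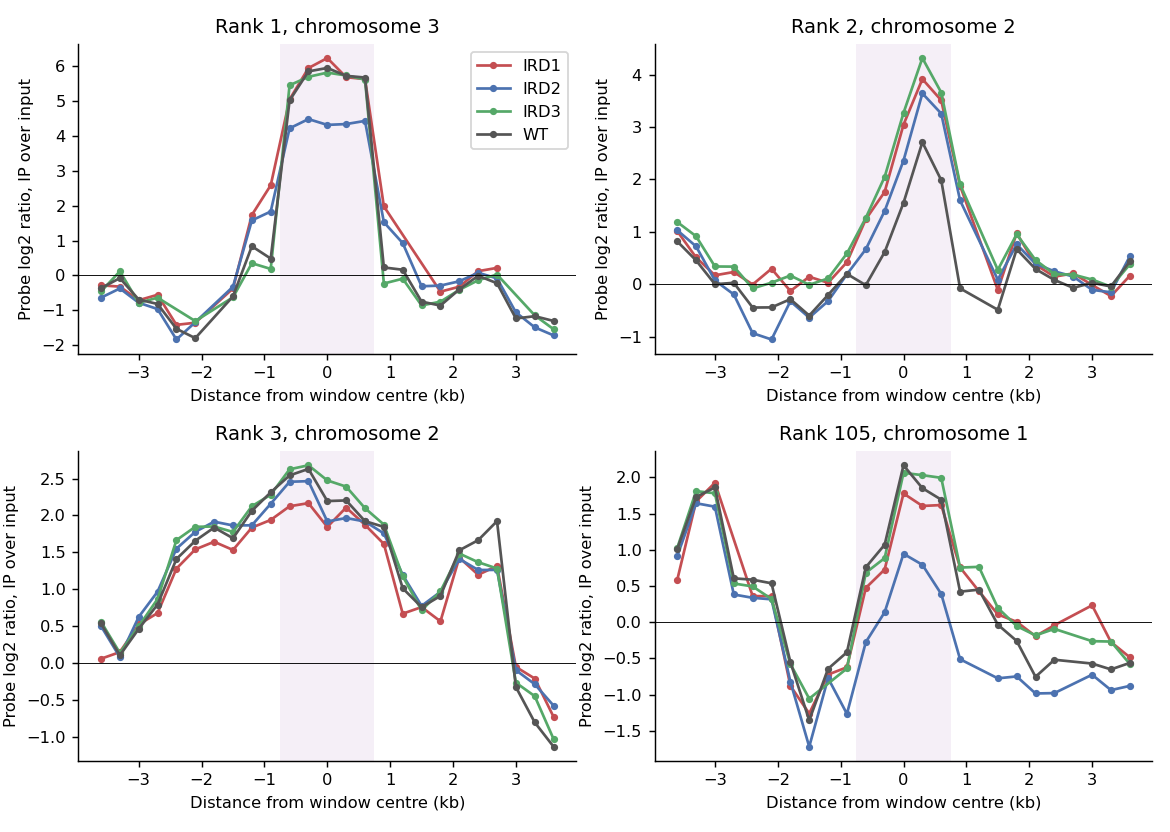
Probe log2 ratios of immunoprecipitated over input DNA against distance from the window centre in kb for 4 members, with the window shaded and 1 line per array. The first is a box with IRD2 low inside it, the second a peak with WT low, the third a stretch of several kb, and the member of rank 105 a peak with IRD2 low.

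Over the members as a whole, each IRD array was set against WT window by window. The 3 comparisons share the WT array. The median difference from WT was -0.28 in IRD1 (quartiles -0.43 and -0.15), and 454 of 500 members were lower in IRD1. It was -0.05 in IRD2 (quartiles -0.21 and 0.14), with 278 members lower, and -0.12 in IRD3 (quartiles -0.25 and -0.01), with 385 lower. Over all arm windows the IRD1 median was -0.07, that of IRD2 -0.03 and that of IRD3 -0.06. The shift of the members in IRD1 was not kept when the arrays were brought to one spread. With the arrays scaled to one interquartile range of arm windows, the median difference of the members from WT was -0.03 in IRD1, with 280 members lower. Scaled in this way it was -0.10 in IRD2, with 322 lower, and -0.02 in IRD3, with 277 lower. Without scaling, 244 of 500 members were lower on each of the IRD arrays than on WT, against 33.4% of all arm windows. Those higher on each numbered 25 of 500, against 15.7%. These counts were not made again after scaling.

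Between the IRD arrays, which leaves WT out, the median difference of the members was -0.27 for IRD1 minus IRD2, -0.18 for IRD1 minus IRD3 and 0.10 for IRD2 minus IRD3. Over all arm windows these medians were -0.04, -0.01 and 0.04. After scaling to one interquartile range the members' medians were 0.04, -0.02 and -0.05, so the order of the arrays over the members turned with the scaling. Unscaled, the highest value of a member was on WT in 244 members, on IRD2 in 194, on IRD3 in 48 and on IRD1 in 14. The lowest was on IRD1 in 353 members. At a difference of at least 1, 2 members were higher in IRD1 than in IRD2, against 0.117% of all arm windows, and 0 lower, against 0.013%. At the same limit 2 members were lower in IRD2 than in IRD3, against 0.157%, and 0 higher, against 0.0261%. Between IRD1 and IRD3, 0 members were higher, against 0.013%, and 0 lower, against 0%.

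**Figure D4:**
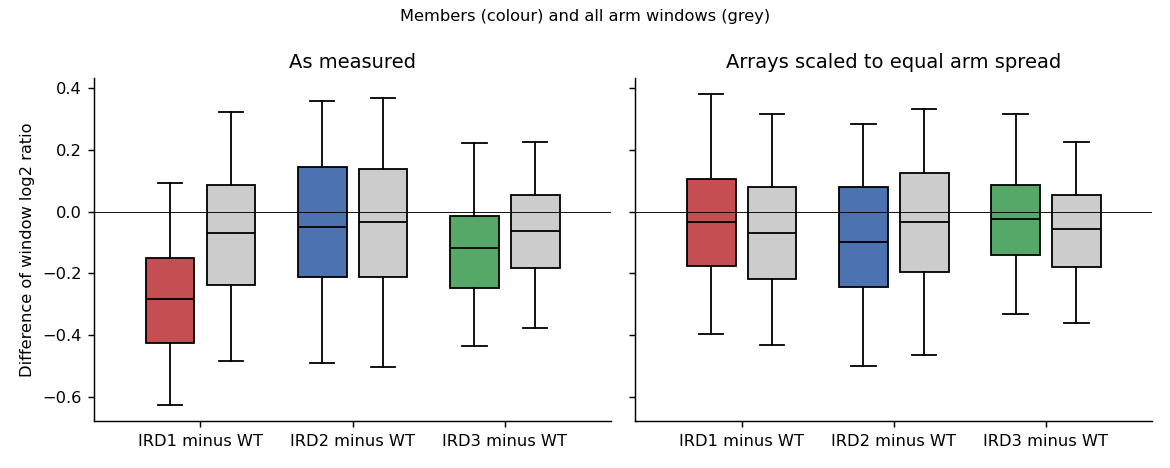
Differences of window log2 ratio from WT in each IRD strain, for the 500 members (coloured) and all arm windows (grey), as measured on the left and with the arrays scaled to one interquartile range on the right. Boxes show quartiles and medians, and whiskers the 5th and 95th percentiles of windows. The IRD1 box sits lowest on the left, with a median of -0.28, and at -0.03 on the right.

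Few members differed from WT by 2-fold or more. In IRD1, 1 member was at least 1 higher, against 0.0261% of all arm windows, and 0 were at least 1 lower, against 0.013%. In IRD2, 0 were higher, against 0.013%, and 2 lower, against 0.104%. In IRD3, 1 was higher, against 0.0261%, and 0 lower, against 0%. The member that was higher in IRD1 and in IRD3 was the window from 2340000 on chromosome 2. The members lower in IRD2 were the window from 115500 on chromosome 3, by 1.38, and one on chromosome 1.

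That one, from 4102500 to 4104000, had 1.60 in IRD1, 0.39 in IRD2, 1.99 in IRD3 and 1.69 in WT. It ranked 2563rd on IRD2, the lowest rank of any member on any array, and 21st on IRD1, 9th on IRD3 and 61st on WT. All 5 of its probes were lower in IRD2 than in WT, by 0.93 to 1.30, and 4 of the 5 were above 0 there. The peak in IRD2 kept its place, with its top at 4103100, where it had 0.94, against 1.78 in IRD1, 2.06 in IRD3 and 2.17 in WT. Within-array loess reduced the difference between IRD2 and WT to -0.62.

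At a difference of 0.5 the unscaled counts were larger and leaned downward, as did those of all arm windows. They were not made again after scaling, which brought the members' median difference from WT in IRD1 to -0.03. In IRD1, 1 member was at least 0.5 higher and 79 were lower, against 0.926% and 4.34% of all arm windows. In IRD2, 10 were higher and 21 lower, against 1.5% and 5.05%. In IRD3, 2 were higher and 13 lower, against 0.352% and 1.34%.

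Among the members, the largest fall in IRD1 was from 4758000 to 4759500 on chromosome 1, with 0.69 in IRD1, 1.10 in IRD2, 1.16 in IRD3 and 1.66 in WT. WT was the high array there, and IRD1 differed from it by -0.97. The next falls in IRD1 were the windows from 3352500 on chromosome 1, 1321500 and 828000 on chromosome 3 and 489000 on chromosome 1, with differences of -0.86 to -0.81. All 5 windows were lower than WT on the other IRD arrays too, by 0.09 to 0.62 in IRD2 and by 0.25 to 0.52 in IRD3. As these differences share the WT array on which the windows were picked, this is a description. The rises in IRD1 after the window at 2340000 were small, the next being 0.47 at 5025000 on chromosome 1.

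In IRD2, the falls after the 2 named above were the windows from 2256000 and 3370500 on chromosome 1 and from 1164000 on chromosome 3, with differences of -0.94, -0.94 and -0.93. The window from 2256000 had 0.91 in IRD1, 0.59 in IRD2, 1.21 in IRD3 and 1.53 in WT. The window from 3370500 had 1.27 in IRD1, 0.82 in IRD2, 1.64 in IRD3 and 1.76 in WT. In all 3 windows IRD2 was the lowest array and WT was above IRD1 and IRD3.

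The rises in IRD2 were smaller than these falls. The window from 4111500 on chromosome 2 had 0.86 in IRD1, 1.69 in IRD2, 1.40 in IRD3 and 0.89 in WT, a rise of 0.80. The window from 420000 on chromosome 3 had 0.95 in IRD1, 1.47 in IRD2, 1.05 in IRD3 and 0.68 in WT, a rise of 0.79. The window from 1329000 on chromosome 2 had 1.30 in IRD1, 1.71 in IRD2, 1.49 in IRD3 and 1.0 in WT, a rise of 0.71. IRD2 was the highest array in each, and in the windows from 420000 and 1329000 all 3 IRD arrays were above WT. The fifth of these rises was 0.59, at 765000 on chromosome 2.

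IRD3 had the fewest members that differed from WT by 0.5 or more. Its largest fall among the members, at 1374000 on chromosome 3, was -0.66, with 1.33 in IRD1, 1.57 in IRD2, 1.12 in IRD3 and 1.78 in WT. The other 4 of the 5 largest falls, at 2901000 and 1758000 on chromosome 2, 1047000 on chromosome 3 and 4641000 on chromosome 1, were -0.64 to -0.59. All 5 windows were lower than WT in IRD1 and in IRD2 as well. The differences share the WT array, so a high WT value lowers all of them together. The window at 2901000 rests on 3 usable probes, and with outlier spots kept it had -0.48 in IRD1, -0.48 in IRD2, -0.35 in IRD3 and -0.47 in WT, neither high nor lower in IRD3. After the window at 2340000, its rises were 0.51 at 4111500 and 0.49 at 1329000, both on chromosome 2, and then 0.42 at 3057000 on chromosome 2 and 0.38 at 3640500 on chromosome 1.

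The members were spread over all 3 chromosomes. Chromosome 1 held 225 of them in 3484 arm windows (6.46%), chromosome 2 held 186 in 2743 (6.78%) and chromosome 3 held 89 in 1439 (6.18%). Bins of 250 kb were counted where they held at least 100 arm windows. In these the share of arm windows that were members ran from 1% to 13.5%, with a median of 6.13%. None of these 47 bins was without a member. Bins with fewer arm windows were left out, among them the one that holds the centromere region set aside on chromosome 3. That bin also held members, such as those from 1047000 and 1164000. Its share was not counted and may lie above this range. The highest share among the counted bins was 21 of 156 windows, from 3500000 to 3750000 on chromosome 1. The lowest was 1 of 100, in the outermost 250 kb at the left end of chromosome 1. The median distance from one member to the next was 13.5 kb, and the longest was 183 kb.

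Members were scarce beside the chromosome ends and not beside the internal domains. Within 20 kb of the regions set aside around the centromeres and the mating-type region, 12 of 110 arm windows were members (10.9%). Within 20 kb of the regions set aside at chromosome ends, 0 of 78 were. Within 50 kb, the shares were 27 of 270 (10%) and 2 of 196 (1.02%), against 6.52% of all arm windows. The windows of one border are neighbours and not independent, and these shares were not tested.

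Most members stood alone. They made up 6.52% of arm windows, so single windows would be common wherever members lay, and the count was not set against this. They formed 453 runs of adjacent windows, of which 411 were a single window, 37 were 2 windows and 5 were 3 windows long. The runs of 3 were from 438000 to 442500 on chromosome 3, from 4944000 to 4948500 on chromosome 1, and from 1702500 to 1707000, 768000 to 772500 and 3054000 to 3058500 on chromosome 2. The first of these had the highest mean level, 1.67, and its windows had 1.27 to 1.49 in IRD1, 1.59 to 1.86 in IRD2, 1.72 to 1.85 in IRD3 and 1.66 to 1.87 in WT. IRD1 was the lowest array in each of these 3 windows. The run held the longest unbroken stretch of usable probes with a mean of at least 1, which was 15 probes from 437700 to 441900, or 4.26 kb.

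The signal of a member was narrow. Members were chosen for the height of their own window, so lower values beside it largely follow from the rule and are a description. The window next to a member had a median of 0.24 on one side and 0.17 on the other, against 1.22 for the members themselves. Of these neighbours, 9.48% and 9.51% were members, against 6.52% of all arm windows. Around the window centre the median probe ratio was 1.18 in IRD1, 1.43 in IRD2, 1.35 in IRD3 and 1.47 in WT. At 900 bp past the centre it was 0.48 in IRD1, 0.62 in IRD2, 0.55 in IRD3 and 0.60 in WT. At 1500 bp past the centre it was 0.11 in IRD1, 0.14 in IRD2, 0.14 in IRD3 and 0.15 in WT. At 1500 bp before the centre it was 0.15 in IRD1, 0.25 in IRD2, 0.19 in IRD3 and 0.24 in WT. On all 4 arrays most of the median height was thus lost at this distance, and more so past the centre than before it. Sheared fragments were 400-600 bp long, so that the signal of a single point would also reach neighbouring probes. Across all arm probes the correlation of a probe with the next one, 300 bp away, was 0.72 in IRD1, 0.81 in IRD2, 0.79 in IRD3 and 0.79 in WT. At 1500 bp apart it was 0.08 in IRD1, 0.13 in IRD2, 0.11 in IRD3 and 0.09 in WT.

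**Figure D5:**
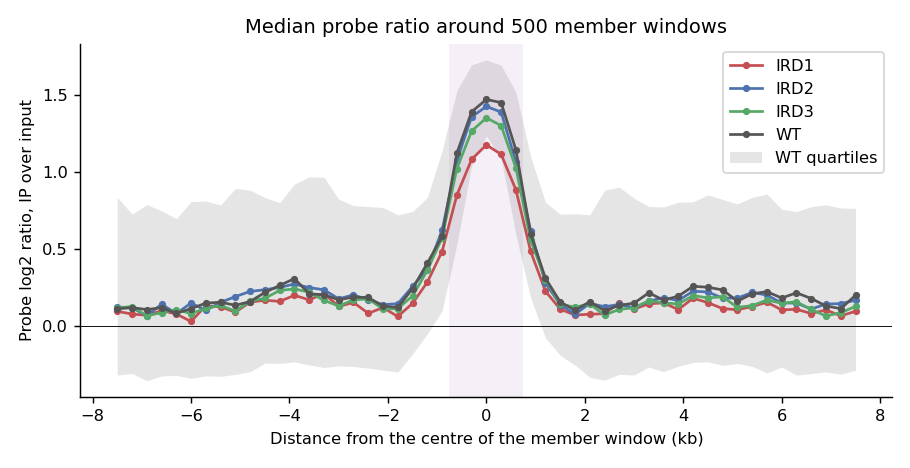
Median log2 ratio of immunoprecipitated over input DNA of probes by distance from the centre of the 500 member windows in kb, 1 line per array, with the WT quartiles in grey and the window shaded. All 4 arrays peak at the centre, between 1.18 in IRD1 and 1.47 in WT, and lie at 0.11 to 0.15 at 1500 bp past it. A peak at the centre largely follows from the choice of the windows.

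Stretches of usable probes whose mean over the arrays was at least 1, touching a member, numbered 502. Their median was 3 probes. A length of 1 or 2 probes was found in 64 of them, 3 to 5 probes in 384 and 6 or more in 54. Within the window, the highest probe had a median of 1.58 and the lowest a median of 0.54, and in 72 members the lowest probe was below 0. Every usable probe was at least 1 on every array in 19 members. The stretches of 10 or more probes were 3: that on chromosome 3, the one on chromosome 2 from 1864200, and one of 10 probes on chromosome 1 from 4964700 to 4967400.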

How the data were processed

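Chromatin of 4 strains was precipitated with an antibody to H3K9me3, and per the labels' protocols precipitated DNA carried Cy5 and whole-cell extract DNA Cy3, so each ratio is immunoprecipitated over input. Strains were taken from the titles, because the genotype and antibody labels of IRD1 and IRD3 are exchanged. Slide and scan do not separate the strains, since the arrays shared 1 slide and 1 scan. Spot intensity came from Agilent Feature Extraction 12.0.3.1, per the file headers, and its processed signal has the background subtracted and the dyes balanced by linear factors. The deposited value table holds an uncentred linear ratio of red over green, with medians of 1.02 in IRD1, 1.09 in IRD2, 1.04 in IRD3 and 1.08 in WT. On the log2 scale it differed from the processed signals by at most 0.0133 in IRD1, 3.5e-09 in IRD2, 0.0132 in IRD3 and 3.8e-09 in WT. Its scale and direction are thus known. The IRD1 and IRD3 arrays also had the larger shares of outlier spots, given below, and the reason for this pairing was not tested.

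The log2 ratio of the processed signals was centred on a median over genomic probes, of which each array has 41551, with no loess. This median was taken over the probes that were no outlier and had input well above background on that array. The 1417 control spots per array and spots marked as outliers by Feature Extraction (7.33% in IRD1, 0.54% in IRD2, 4.28% in IRD3, 1.13% in WT) were left out. A window needed 3 probes without the suffix f or m on the array design. Its value was the median over probes usable on all 4 arrays (not an outlier, input well above background), 36786 in total, which gave a value to 7666 of 7667 arm windows. This use of common probes was chosen after seeing the data. Of the members, 398 rested on 5 such probes and 6 on fewer than 3, and 8 also hold a probe with a suffix. Mean spot signals are not in the columns used, so the alternatives meant to use them took median spot signals. The reference assembly was not used for genes or sequences, since the last chromosome 3 probe, at 2453700, lies beyond its length of 2452883.

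The members, the rules and the alternatives were chosen with earlier results of these data known. Named are the 10 highest members, the 5 largest rises and falls against WT per IRD strain, the 5 longest runs and the windows at the limit of 500. The windows described probe by probe and the stretches of probes were chosen after their values were seen. A difference of at least 1 was called 2-fold. Precision is limited by the single array per strain. The code for the choice of windows and the count of differences was run on simulated data, whose raised windows stood far clear of the rest. That run checks the code and does not bear on the choice along the continuous slope found here. Python 3.11.15, pandas 2.3.3, R 4.3.3 and limma 3.58.1 were used.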

Additional observations from a re-analysis of the deposited data

How the results depend on the processing

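No paired analysis was possible because each strain had 1 array. Of 177 values recomputed under other settings, 148 moved by less than 0.2 on the log2 scale or, for counts, by at most 1.5 times, and 29 moved by more. The limit of 0.2 is larger than several of the median differences between arrays, which could change sign within it. The tally therefore says little about those differences. The median of IRD1 minus WT, at -0.15 under loess, also counts as within the limit. Normexp gave member medians of 1.28 in IRD1 and 1.56 in WT, 1 member 2-fold lower in IRD1, 1 higher and 4 lower in IRD2, and 27 with a mean of at least 2. It chose 342 of the 500 members again. Loess gave medians of 0.84 in IRD1, 0.96 in IRD2, 0.91 in IRD3 and 0.98 in WT, 1 member lower in IRD2, 99 at 1 or more on all 4 arrays and 2 with a mean of at least 2, and chose 291 of the 500 members again. Scaling the arrays gave median differences of -0.032 for IRD1 minus WT and 0.045 for IRD1 minus IRD2, which turned its sign, as did IRD2 minus IRD3, at -0.051, with 2 members higher in IRD1. The mean over probes left 3 members with a mean of at least 2. A difference of 0.5 counted 79 members lower in IRD1, 10 higher and 21 lower in IRD2, and 2 higher and 13 lower in IRD3. Keeping 250 or 1000 windows gave 238 or 828 runs. Spots usable on each array separately, an alternative added after seeing the data, gave 2 members higher and 1 lower in IRD1, and 6 higher and 1 lower in IRD3. With outlier spots kept, 460 members were chosen again. Without 1 array, 458 to 475 members were chosen again. The choice rests on the grid: moved by 750 bp, it held 34.4% of the members' length and touched 311 members. The window from 115500 on chromosome 3 stayed lower than WT in IRD2 under each setting run for it, by 1.29 to 1.95, but scaling put IRD1 1.21 above WT there. The window from 2340000 on chromosome 2 stayed above WT in all 3 IRD strains, and the smallest of these differences was 0.53, for IRD2 under loess. The cause of these changes was not tested. Between 6 and 7 probes per array had too little input signal over background to give a ratio.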
